A study of Mus musculus with 4 samples.

Results

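The genes described here encode the proteins of the cytosolic ribosome, and their m6A sites and gene coverage were read from libraries of mouse retinal organoids with and without Mettl3. Members were the genes whose symbol is Rpl or Rps followed by a digit, together with Rplp0, Rplp1, Rplp2 and Rpsa, without pseudogene names and without the Rps6k kinases. The rule found 85 genes among the 29181 gene features of the site lists. Of these, 81 are protein-coding in the RefSeq gene table. Rpl6l, Rps12l1, Rps3a3 and Rps4l are listed there as pseudogenes, and Rps19bp1, which binds RPS19 and is no ribosomal protein, was taken in by its name. The RefSeq table holds 8 further protein-coding names of this form, Rpl10l, Rpl17, Rpl24, Rpl30, Rpl3l, Rps10, Rps27a and Rps3, which were not analysed here.

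Organoids, which form in culture out of pluripotent stem cells, were collected after 4 days of differentiation in medium with 5% KSR, a serum replacement, and 0.1 µM AGN. The 2 wild-type libraries came from the Rx:GFP line, in which a green fluorescent protein reports the eye field gene Rax. The 2 knockout (KO) libraries came from a Mettl3 KO line that also harbours a doxycycline-inducible, HA-tagged METTL3, and no doxycycline is recorded for any library. All 4 libraries carry 1 batch label, and whether the KO line is 1 clone, or the replicates separate cultures, is not stated, so p-values measure the spread between these libraries, which may be technical. GLORI was used in all of them: unmodified adenosine in poly(A) RNA is deaminated by glyoxal and nitrite and read as G, whereas N6-methyladenosine (m6A) stays A. The level of a site is the fraction of its reads that stayed A, and its coverage is the number of reads with A or G.

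The cytosolic ribosome joins a small subunit, which reads the messenger RNA, to a large subunit, which forms the peptide bond, and a stalk of P proteins on the large subunit recruits translation factors. Its protein genes are among the most strongly expressed of growing cells, and their messengers are short and begin with a pyrimidine run, the 5′ TOP tract, through which mTOR and LARP1 set their translation. METTL3 with METTL14 writes most m6A of messenger RNA, typically near stop codons and in last exons, and m6A marks many transcripts for decay.

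The start of a ribosomal protein transcript is shown first because the TOP tract is the sequence feature for which these messengers are known. Windows run from 10 bases before to 20 bases from the annotated start, 5′ to 3′ on the gene's strand, from RefSeq on GRCm38.p6. Capitals mark a tract, a C at the start followed by at least 4 bases that are each C or T, searched on that strand only. The windows are those of genes to which the results below return, and of Rps6 as a plain example.
Rpl15, chr14:18270967-18270996, minus strand: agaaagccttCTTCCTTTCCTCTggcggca
Rps15a, chr7:118116128-118116157, minus strand: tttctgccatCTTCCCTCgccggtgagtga
Rps6, chr4:86857348-86857377, minus strand: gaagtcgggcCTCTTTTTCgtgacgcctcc
Rplp2, chr7:141447641-141447670, plus strand: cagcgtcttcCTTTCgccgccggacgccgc
Rpl41, chr10:128549149-128549178, minus strand: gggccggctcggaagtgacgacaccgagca
Rpl22, chr4:152325716-152325745, plus strand: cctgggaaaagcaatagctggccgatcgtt
Rpl37a, chr1:72711250-72711279, plus strand: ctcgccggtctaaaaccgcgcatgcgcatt
Rps2, chr17:24720053-24720082, plus strand: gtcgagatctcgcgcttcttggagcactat

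The first 4 windows hold the tract at the annotated start, with 13 bases in Rpl15 and 5 in Rplp2, and the last 4 do not. A first start was found in the RefSeq table for 64 of the 85 members, and 13 of these (20.3%) had the tract, against 673 of 27025 genes of the table (2.49%). The search reads 1 annotated base as the start, so a tract a few bases away is missed. The lists give other coordinates for the same genes than GRCm38 does, and place Rpl15 on the plus strand, so the windows and the sites below must not be set on 1 axis.

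Wild-type lists had 227298 and 288516 sites and KO lists 230299 and 215850, with a median coverage of 38 to 41 reads. No listed site had under 15 reads, under 5 unconverted reads, a level below 0.1 or a p above 0.004. A site that is not listed may have missed any of these limits, and the lists do not tell which. The lists also give each site a gene coverage value. For 20 or 21 values per library, 1 per chromosome, this value was shared along the whole chromosome, by 18.4% to 24.3% of sites; it is called a chromosome-wide value here, and all others a gene value. The targeted gene itself had coverage in all libraries: Mettl3 stood at 1.01 and 0.801 times the median gene in wild type and at 1.16 and 1.04 times in KO libraries, and the lists separate neither the deleted part nor the inducible copy from it. Of 6 eye field and retinal progenitor markers, 3 were tested for coverage and 2 fell in the KO, Six3 from 16.3 and 17.6 to 1.80 and 2.45 times the median gene and Lhx2 from 4.26 and 4.61 to 0.636 and 0.628 times, while Pax6 stood at 2.22 and 2.23 against 2.61 and 2.23 (limma adjusted p = 0.733). Of the other marker lists, all 3 tested pluripotency markers fell, as did Sox2 among 4 early neural genes, from 12.1 and 12.6 to 7.99 and 6.35 times, and Fgf5 among 3 epiblast genes, from 0.906 and 0.885 to 0.535 and 0.564 times. Values to test were held by 0 of the mesoderm, endoderm and extraembryonic markers. The lists mark 46.6% to 49.7% of member sites as inside an intron, against 44.7% to 44.9% of all sites, and give no exon or UTR.

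Ribosomal protein genes held 980 and 1025 listed sites in wild type and 863 and 1015 in the KO. KO 1 was below both wild-type libraries and KO 2 lay between them. The means were 1003 ± 31.8 (SD, n = 2) and 939 ± 107 (SD, n = 2), and an exact two-sided permutation test gave p = 0.667, where 0.333 is the smallest that 2 libraries against 2 allow. As a share of all sites of the library they were 0.431% and 0.355% in wild type and 0.375% and 0.470% in the KO, which overlap as well. In all, 83 of the 85 members had a site in some list and 76 in all 4, and the members without any were Rpl32l and Rps27rt, both paralogue-like.

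Single genes held up to 56 sites in a list, with a median of 9 and 11 in wild type and 8 and 10 in the KO. Each KO library had fewer sites than either wild-type library in 14 of the 85 members, and 24.7% of all genes with sites had this order. The opposite order held in 9 members, against 10.6% of all genes. Among the 14 were Rpl22l1, with 7 and 3 sites in wild type and 2 and 2 in the KO, and Rpl41, with 6 and 7 against 3 and 5. Among the 9 was the pseudogene Rps4l, with 4 and 6 against 7 and 10.

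Most sites of ribosomal protein genes carried a chromosome-wide value, 64.4% and 61.5% in wild type and 62.3% and 60.2% in the KO, where over all sites these shares were 21.7%, 24.3%, 18.4% and 18.5%. The remaining 349, 395, 325 and 404 sites with a gene value are therefore given apart. They were deeper, with a median coverage of 65 and 81 reads in wild type and 76 and 90.5 in the KO, where the chromosome-wide ones had 36, 39, 38.5 and 33. Between 35 and 48 member sites per list also lay in another feature of the same strand and cannot be assigned to 1 of them.

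Levels at the members' sites were low in both genotypes. The median level of sites with a gene value was 0.167 and 0.165 in wild type and 0.158 and 0.156 in the KO, so the KO values were a small step below the wild-type ones, without overlap. The difference of the means was -0.009, from 0.166 ± 0.000849 to 0.157 ± 0.00116 (SD, n = 2 each), and the exact permutation p was 0.333. Each median covers only the sites listed in that library. A site that fell below the list limits in the KO drops out and does not lower the median. The difference therefore does not measure the change at the same sites. Over all sites with a gene value the medians were 0.226, 0.220, 0.194 and 0.214, above those of the ribosomal protein genes in every library. Their median coverage was 44, 48, 45 and 42 reads, against 65, 81, 76 and 90.5 at the members' sites. A listed site needs at least 5 unconverted reads, so shallow sites are listed only at higher levels, and depth was not matched in this comparison. At the members' sites with a chromosome-wide value the median levels were 0.227 and 0.214 in wild type against 0.217 and 0.245 in the KO, with overlap. Over all member sites the medians of 0.206, 0.197, 0.194 and 0.205 overlapped too.

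Well covered sites of high level were few, and there were fewer in the KO. Among sites with 100 or more reads, ribosomal protein genes had 11 and 13 with a level of 0.3 or more in wild type against 4 and 6 in the KO. The genotypes did not overlap, at means of 12 ± 1.41 and 5.0 ± 1.41 (SD, n = 2 each), with an exact permutation p of 0.333. With 50 or more reads they did overlap, at 30 ± 7.07 and 27.5 ± 4.95 (SD, n = 2 each, exact permutation p = 0.667). Among sites of 100 reads with a gene value the counts were 8 and 10 against 1 and 4, and among those with a chromosome-wide value 3 and 3 against 3 and 2. Over all genes the same counts were 4364 and 6245 against 1038 and 1298. As a share of well covered sites this was 12.7% and 12.5% in wild type and 3.45% and 4.60% in the KO over all genes, and 5.29% and 5.49% against 1.99% and 2.39% in ribosomal protein genes. Only member sites in Rps2, Rpl15 and Rpl41 had 100 or more reads and a level of 0.3 or more in both wild-type libraries. No member site did so in both KO libraries, and the other counted sites met both limits in a single library. The wild type 2 count included sites of the pseudogene Rps4l at 0.994 and 1.00, which wild type 1 did not list.

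Sites recurred little between libraries. Of 3545 member sites in any list, 92.2% stood in 1 list only, as did 91.9% of all 881997 sites, and 15 member sites stood in all 4. The wild-type libraries shared 96 member sites in 48 genes. Among sites with a gene value, the wild-type pair had 55 in common, 7.98% of their union with a Wilson 95% interval of 6.18% to 10.2%. The KO pair had 37 (5.35%, 3.90% to 7.28%), and the 4 mixed pairs had 4.66% to 5.46%. These intervals overlap, and all intervals here cover counting error only, since reads may be PCR copies. Over all listed sites with a gene value, the wild-type pair shared 6.83%, the KO pair 2.82% and the mixed pairs 2.74% to 2.89%. The members' difference from these shares was not tested.

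**Figure D1:**
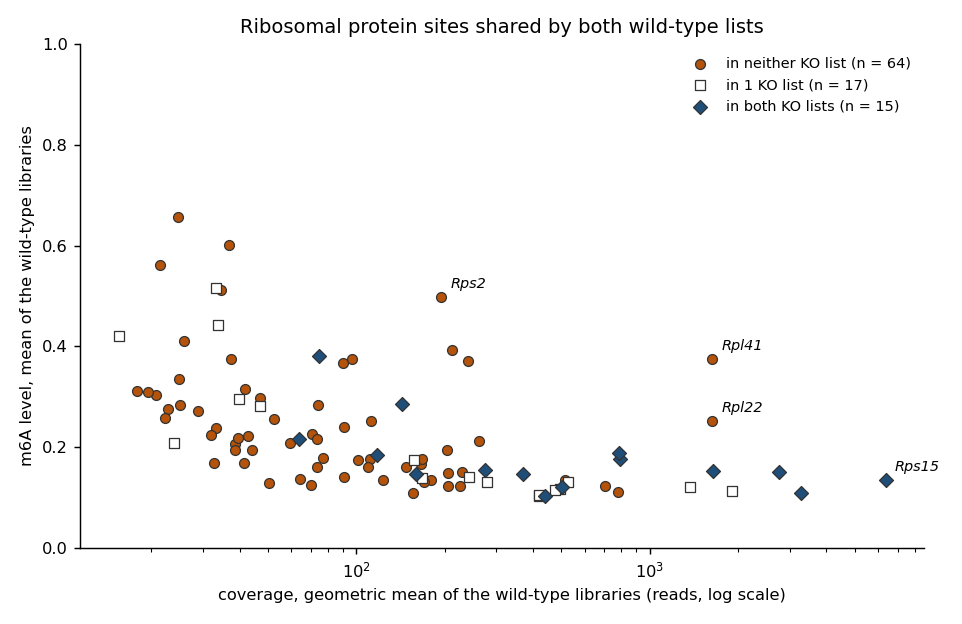
Each point is 1 of the 96 ribosomal protein sites that the wild-type libraries share, with its mean wild-type level (fraction of reads unconverted) against the geometric mean of its wild-type coverage on a log scale. Circles mark the 64 sites in neither KO list, squares the 17 in 1 and diamonds the 15 in both. Most diamonds lie below a level of 0.2. Those above it are 1 site each of Rps25, Rpl13 and Rpsa, at mean wild-type levels of 0.216, 0.286 and 0.381.

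Of the wild-type shared sites with at least 20 reads in both libraries, in members that had a site in each KO list, 56 of 87 were in neither KO list. This is 64.4% with an interval of 53.9% to 73.6%, and the share over all genes was 83.3% (17894 of 21473). In the other direction, the KO libraries shared 63 member sites of this kind, and 35 of them were absent from both wild-type lists, 55.6% with an interval of 43.3% to 67.2%, against 72.8% over all genes. Restricted to sites with a gene value, 30 of 53 were in neither KO list, or 56.6%, against 83.9%. Sites of 1 gene share its transcripts and its depth, so these shares are descriptions with no test.

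The members' sites are given by level next, again with no test. Of 17 sites with a gene value and a wild-type mean of 0.2 or more, 14 (82.4%, interval 59.0% to 93.8%) were in neither KO list. Of 36 below that level, 16 (44.4%, 29.5% to 60.4%) were. Over all genes the same shares were 86.3% and 79.1%. The intervals treat sites as independent, which sites of 1 gene are not.

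Gene coverage in the KO can be used to ask which of these sites were deep enough to be seen. The coverage expected in a KO library is the wild-type coverage scaled by the ratio of the gene's coverage values. With at least 50 reads expected in both KO libraries, 7 of 8 member sites at a level of 0.2 or more were in neither KO list, against 85.1% over all genes. Of the 32 lower ones, 13 (40.6%, interval 25.5% to 57.7%) were in neither, against 75.5%. The same depth rule was also turned round, for KO shared sites and the coverage expected in wild type. Of 29 such member sites, 12 (41.4%, interval 25.5% to 59.3%) were missing from both wild-type lists, against 66.3% over all genes. At a level of 0.2 or more this held for 1 of 2 member sites, against 60.5% over all genes. The difference between the directions was not tested.

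By role, 44 of 60 wild-type shared sites of the large subunit, 14 of 26 of the small subunit, 3 of 7 of the stalk and 3 of 3 of the paralogue-like genes were in neither KO list. In the large subunit, Rpl41 encodes the smallest protein of the ribosome, a short basic peptide. Its site at chr10:128384056, minus strand and 73 bases before the gene's end, had a level of 0.396 over 2048 reads in wild type 1 (Wilson 95% interval 0.375 to 0.417) and 0.353 over 1304 reads in wild type 2 (0.327 to 0.379). It was in neither KO list, while 2367 reads were expected in KO 2; no single gene value gave an expectation for KO 1. A further Rpl41 site, 201 bases before the end at 128384184, had 0.387 over 287 reads and 0.397 over 156, and was in neither KO list, with 283 reads expected in KO 2. Both Rpl41 sites that the wild-type libraries shared were thus absent from the KO lists.

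Rpl22 encodes a large subunit protein that is not essential for translation and represses its paralogue Rpl22l1. It had 6 wild-type shared sites, the most of any member, and all 6 were in neither KO list. The deepest, at chr4:152418207 on the plus strand and 321 bases before the gene's end, had a level of 0.262 over 1465 reads (interval 0.240 to 0.285) and 0.243 over 1825 reads (0.224 to 0.263). The KO libraries were expected to hold 2061 and 1560 reads there. The other 5 had mean levels of 0.129 to 0.226, 3 of them with a chromosome-wide value. In its paralogue, the site 40 bases before the end of Rpl22l1, at chr3:28861533 on the plus strand, had 0.426 over 101 reads and 0.326 over 92, and was in neither KO list, with 86.7 and 45.5 reads expected.

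Rpl15, of the large subunit, had 5 wild-type shared sites of which 3 were in neither KO list. At chr14:4200730, plus strand, the level was 0.405 over 222 reads and 0.337 over 261 in wild type, and neither KO list held it, where 271 and 185 reads were expected. At 4199372 in the same gene all 4 libraries listed a lower site, with 0.154 and 0.146 in wild type and 0.115 and 0.158 in the KO over 2193 to 3014 reads. The KO libraries lay on both sides of the wild-type values there, so within 1 gene a site of high level was absent from the KO lists and a site of low level was present in them.

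Rpl9 and Rpl18 gave further sites of the large subunit. The Rpl9 site at chr5:65545838, minus strand and 131 bases before the end, had 0.409 over 88 reads and 0.326 over 92 in wild type, and was in neither KO list; it carried a chromosome-wide value. Rpl18 had 4 wild-type shared sites, 2 of them in neither KO list. Its site at chr7:45369899 was listed in all libraries, at 0.120 and 0.173 in wild type and 0.185 and 0.255 in the KO. Both KO values were above both wild-type values there, and the edgeR quasi-likelihood test over all sites in all 4 lists gave an adjusted p of 0.822.

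Rpl13, of the large subunit, had the only site in all 4 lists with a gene value and a wild-type mean above 0.2. At chr8:123829435, plus strand, it had 0.328 over 125 reads and 0.244 over 164 in wild type and 0.274 over 124 and 0.293 over 41 in the KO. The KO values lay between the wild-type ones. This site is 346 bases from the gene's start and 2548 from its end. Rpl10, which is added late to the large subunit, had a lower site in all 4 lists at chrX:73316728, 13 bases before its end, with 0.169 and 0.184 in wild type and 0.158 and 0.156 in the KO over 620 to 945 reads. Its KO values were both lower, and the edgeR adjusted p was 0.893.

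In the small subunit, Rps2, which lies at the entry of the messenger channel, held the highest site among those with 50 or more reads in both wild-type libraries. At chr17:24939828, plus strand, the level was 0.420 over 176 reads and 0.577 over 215, in neither KO list with 193 and 121 reads expected. This position also lies in another feature of the same strand. Both wild-type shared sites of Rps15, in the head of the small subunit, were in all 4 lists. The deepest member site of the series, at chr10:80129886 and 62 bases before the end of Rps15, had 0.128 and 0.143 in wild type and 0.128 and 0.139 in the KO over 5650 to 7423 reads. The other, at 80129697, had 0.150 and 0.157 against 0.158 and 0.154. At neither did the genotypes separate.

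Rpsa encodes a small subunit protein that was first described as a laminin receptor. None of its 3 wild-type shared sites was absent from both KO lists. At chr9:119960489 the level was 0.110 and 0.106 in wild type and 0.105 and 0.106 in the KO, over 2635 to 3522 reads. At 119958222, a site with a chromosome-wide value, it was 0.280 and 0.483 against 0.347 and 0.339, over 60 to 124 reads, and the KO values lay between the wild-type ones. Rps24 had 3 wild-type shared sites, 2 in neither KO list. Its site in all 4 lists, which had a chromosome-wide value, had 0.169 and 0.124 in wild type against 0.112 and 0.115 in the KO.

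The stalk genes shared few sites. Rplp0, the stalk's base, had a site in all 4 lists at chr5:115698956, with 0.213 and 0.163 in wild type and 0.188 and 0.137 in the KO over 622 to 796 reads, with overlap. The adenosine next to it, at 115698957, had 0.107 over 787 reads and 0.117 over 768 in wild type and was in neither KO list. Rplp1, a P protein of the stalk, had 1 wild-type shared site, at 0.124 and 0.104 in wild type and 0.126 in KO 1. Its partner Rplp2 had 3, all with a chromosome-wide value, of which 2 were in neither KO list.

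Most paralogue-like members had few sites or none. Rpl7l1, which resembles Rpl7, had 2 wild-type shared sites, both in neither KO list. That at chr17:47085600, minus strand, had a level of 0.613 over 31 reads and 0.591 over 44, and the KO was expected to hold 26.9 and 25.98 reads. Rps27l, Rps4l and Rpl36al had 0 sites that both wild-type libraries listed, as had the parent genes Rps27 and Rps4x, and Rpl39l had 1 site in 1 list. Rpl39, Rpl3 and Rpl36a had 2 shared sites each, all in neither KO list. In wild type 2 alone, Rps4l had 2 sites at levels of 0.994 and 1.00 over 168 and 183 reads.

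**Figure D2:**
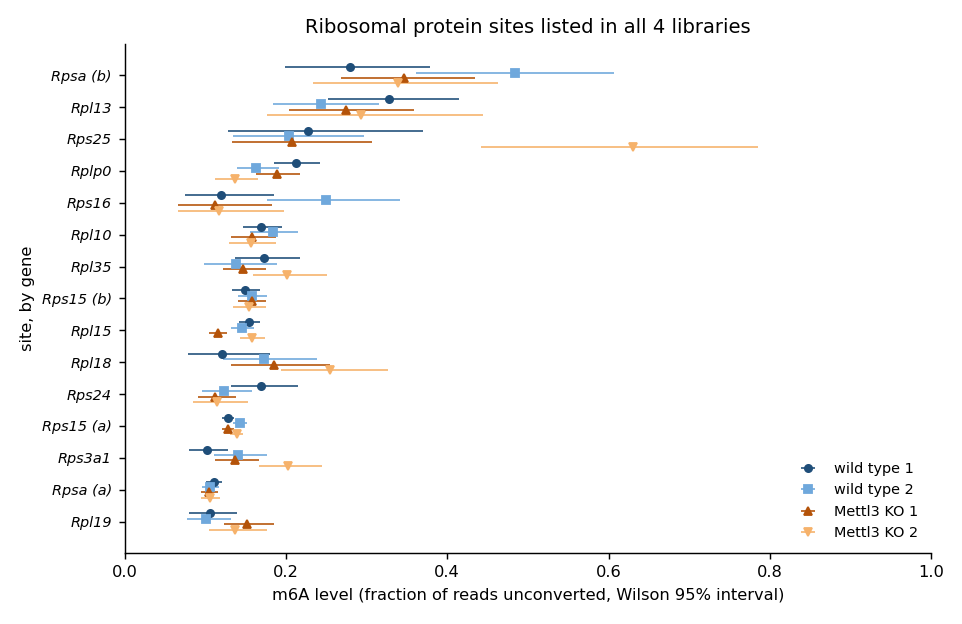
Level (fraction of reads unconverted) of the 15 ribosomal protein sites listed in all 4 libraries, ordered by mean wild-type level; points are libraries and bars their Wilson 95% intervals, with (a) and (b) for the lower and the higher site of a gene. Wild-type means run from 0.104 to 0.381 and KO means from 0.105 to 0.418, and at most sites the genotypes overlap.

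The 15 sites in all 4 lists had similar levels in both genotypes. To be among them a site had to pass the list limits in both KO libraries. Sites that fell below those limits in the KO are therefore left out beforehand, and similar levels here do not describe the members' other sites. Their median was 0.154 in wild type and 0.157 in the KO, and 11 of them were below 0.2 in both. The KO mean was higher at 6 and lower at 9. The KO values were lower without overlap at 4 sites, against 21.4% of all sites of this kind within a gene, and higher at 2, against 17.4%. With edgeR's quasi-likelihood test over 1557 sites, 0 of the 15 passed an adjusted p of 0.05, 0 at an unadjusted p under 0.05, and the smallest adjusted p was 0.662. Over all sites 41 were lower in the KO (2.63%) and 0 were higher (0.00%). The likelihood ratio test and limma on log2 odds called 0 of the 15, and Fisher's exact test on summed reads called 1, Rps3a1, with 0.102 and 0.141 in wild type against 0.137 and 0.203 in the KO (adjusted p = 0.0331, which leaves out the spread between libraries).

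The smallest p were at Rpl19, Rpl18, Rps3a1, Rps24, Rps16 and Rps25. At Rpl19, a large subunit protein at the bridge between subunits, the level was 0.106 and 0.101 in wild type and 0.152 and 0.137 in the KO over 344 to 520 reads. Both KO values were higher, and the edgeR adjusted p was 0.662. At Rps16 it was 0.119 and 0.250 against 0.112 and 0.117, and at Rps25 0.227 and 0.204 against 0.207 and 0.630, where the last value rests on 27 reads. At Rps25 only KO 2 stood apart. The sites of Rps24, Rps16 and Rps25 had a chromosome-wide value in all libraries.

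Sites listed by both KO libraries and by neither wild-type library numbered 40 in the members. Those of the highest mean KO level had a chromosome-wide value, among them Rps23 at chr13:91071469, with 0.595 over 111 reads and 0.184 over 38. Rps15a had 3 such sites, 1 of them at chr7:117705727 with 0.316 over 117 reads and 0.106 over 123. At both sites the KO levels were more than 0.2 apart.

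**Figure D3:**
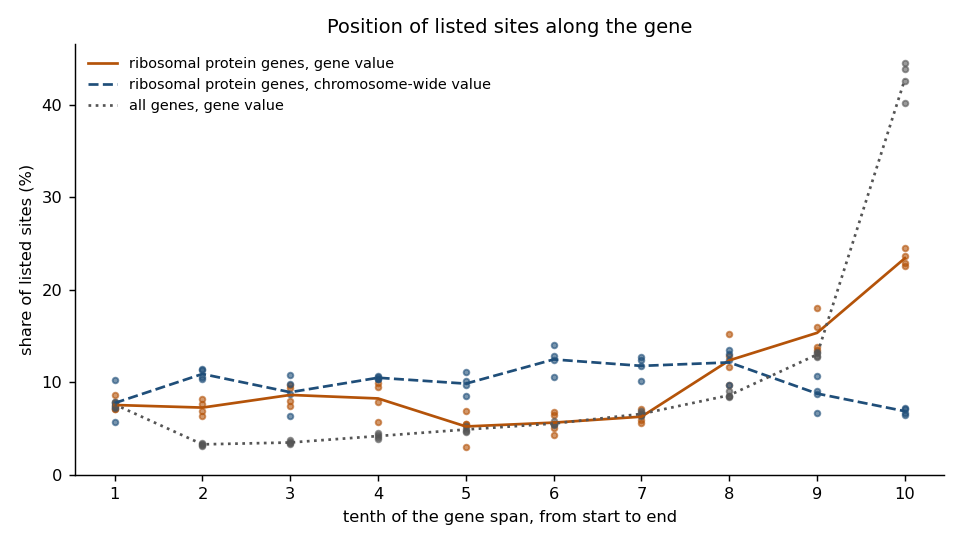
Share of listed sites (%) in each of 10 equal bins of the gene span, from start to end; points are the 4 libraries and lines their means. Sites of ribosomal protein genes with a gene value rise toward the gene's end, those with a chromosome-wide value do not, and sites with a gene value over all genes rise more steeply.

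Along the gene span, member sites with a gene value lay toward the end. The last 20% of the span held 41.0% and 40.5% of them in wild type and 37.2% and 36.4% in the KO, which do not overlap, and the first 20% held 13.4% to 15.6%. Over all genes the last 20% held 57.3% and 55.5% in wild type and 53.5% and 57.0% in the KO. Of the 55 wild-type shared member sites with a gene value, 24 (43.6%) were in the last 20%. Member sites with a chromosome-wide value had 13.3% to 17.8% there and 17.02% to 20.8% in the first 20%. Spans include introns, so a bin holds more exon in some genes than in others.

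Gene coverage, the authors' value per gene, was high for the members. Its unit is not given, and the median gene stood at 46.3 to 57.3, close to the median coverage of sites, so each value is divided here by that of the median gene. A member needed exactly 1 gene value in each library to be tested, which left 34 of 85. Their median was 8.64 and 5.76 times the median gene in wild type, and 9.31 and 7.66 times in KO libraries, and 30 to 32 of the 34 were above the median gene. In each library 23.5% to 44.1% reached 10 times the median gene, where 1.09% to 1.66% of all 8268 genes did.

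**Figure D4:**
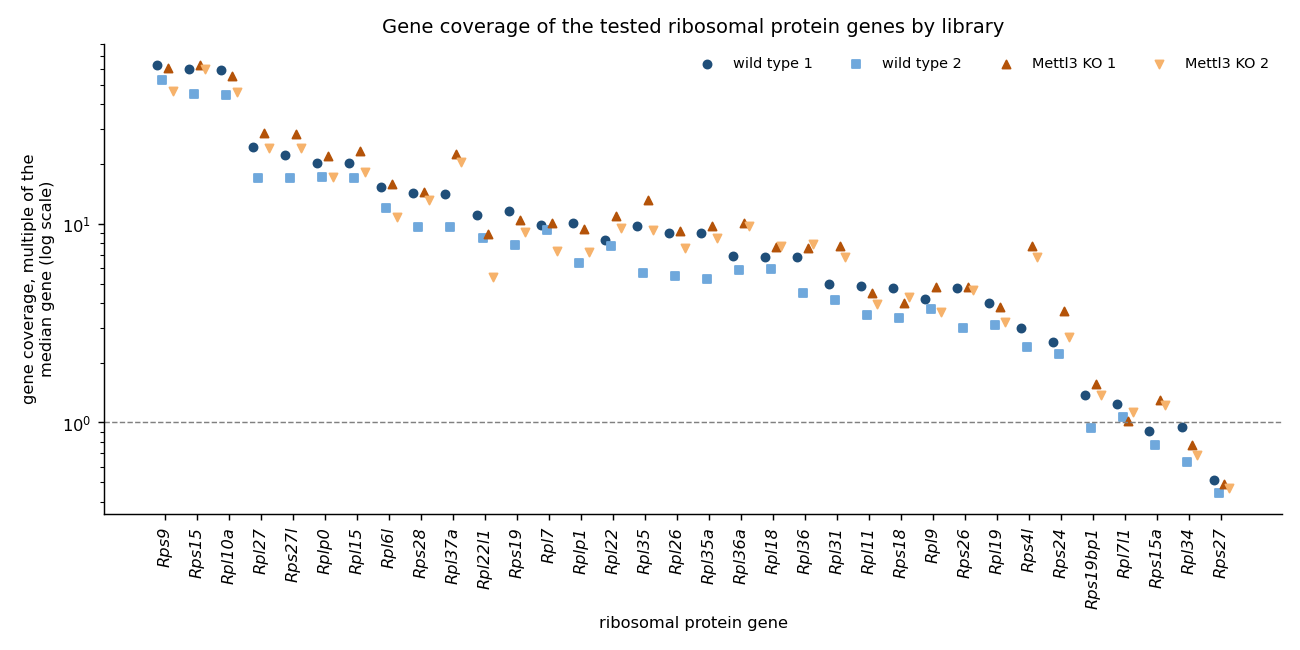
Gene coverage divided by that of the median gene of the same library (log scale) for the 34 tested members, ordered by mean wild-type value; each point is 1 library and the dashed line is the median gene. The values run from about the median gene, or below it, for Rps27, Rpl34 and Rps15a to over 40 times it for Rps9, Rps15 and Rpl10a, and wild type 2 is below wild type 1 throughout.

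The highest tested members were Rps9, Rps15, Rpl10a and Rpl27. Rps9, which binds early in small subunit assembly, stood at 62.7 and 52.7 times the median gene in wild type and 61.1 and 46.4 in the KO. Rps15 stood at 60.5 and 44.9 against 62.8 and 60.2, and Rpl10a, a protein of the L1 stalk, at 59.8 and 44.5 against 55.6 and 46.0. The values of these 3 genes overlap, and Rpl27 was below them at 24.3 and 17.1 against 28.8 and 24.0.

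The lowest were Rps27, Rpl34, Rps15a and Rpl7l1. Rps27, a zinc finger protein of the small subunit, stood at 0.511 and 0.443 times the median gene in wild type and at 0.490 and 0.469 in the KO, while its paralogue Rps27l stood at 22.2 and 17.04 against 28.2 and 24.2. Rpl34 had 0.945 and 0.634 against 0.768 and 0.684. Rps15a and Rpl7l1 are given with the changes below. How reads that match near-identical copies of these genes were counted is not given in the sources used here, so levels of genes with such copies are uncertain.

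Of the 34 members, 3 rose in the KO and 0 fell by limma at an adjusted p under 0.05, where 3.05% of all genes rose and 3.40% fell. Unadjusted p under 0.05 gave 6 and 0, and edgeR's TMM scaling 5 and 0 after adjustment. The KO values were higher without overlap in 10 of the 34, against 24.6% of all genes, and lower without overlap in 0, against 29.4%. The log2 change was above 0 in 26 of the 34, against 47.3% of all genes, with a median of 0.24 against -0.02. Without wild type 2, 16 of the 34 were above 0 and their median was -0.01, against -0.03 over all genes, whereas without wild type 1, 32 were above 0 with a median of 0.40. Quantile normalization gave 28 and 0.37. Without centring, 19 were above 0 and the medians were 0.13 and -0.13. With values taken only from sites in no other feature, a rule chosen after seeing the data, 55 members could be tested, of which 3 rose and 0 fell, with a median of 0.13. Fewer cells of a type and less RNA per cell cannot be told apart in such libraries.

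**Figure D5:**
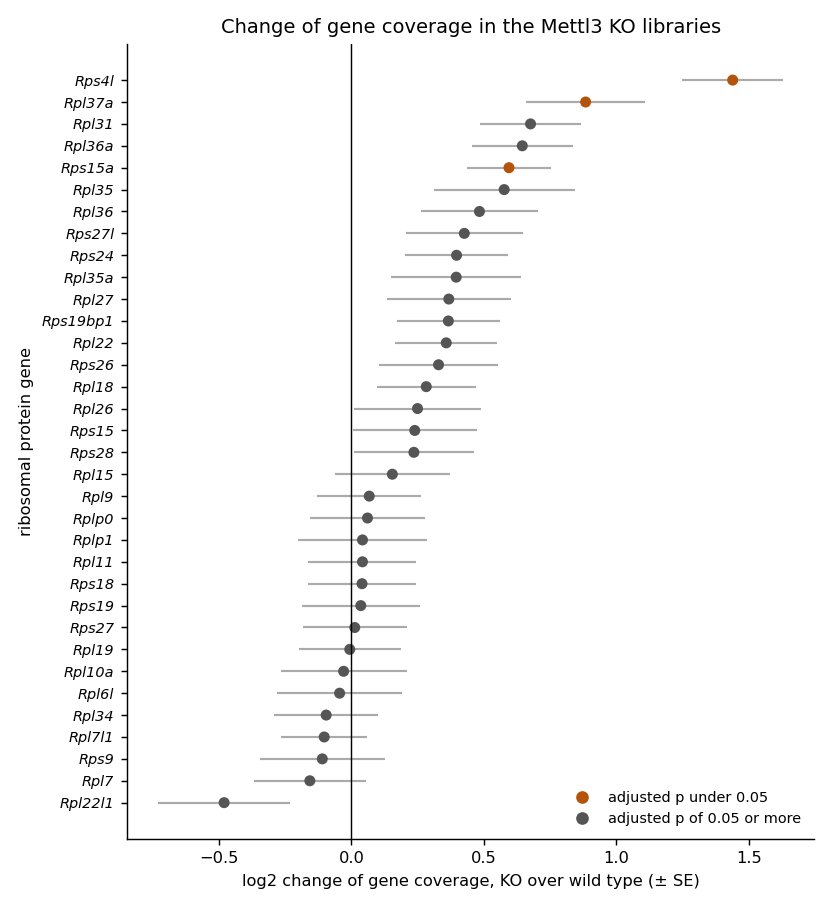
Log2 change of gene coverage between genotypes, KO over wild type, for the 34 tested members, with bars of 1 standard error from the limma fit over 8268 genes. Rps4l, Rpl37a and Rps15a passed an adjusted p of 0.05; most other members lie above 0 by less than 0.7, and Rpl22l1 lies lowest at -0.48.

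Rps4l, a transcribed pseudogene of the small subunit gene Rps4x, rose most. It stood at 2.99 and 2.39 times the median gene in wild type against 7.72 and 6.80 in the KO, with no overlap. The log2 change was 1.44 ± 0.19 (SE), or 2.71-fold, with a limma adjusted p of 0.00151. The log2 change was 1.28 to 1.60 when any 1 library was left out, which leaves 1 library in a genotype. Rps4x itself had no single value in KO 2 and was not tested, with 11.98 and 8.69 in wild type and 14.4 in KO 1. Reads of the near-identical copies may be split between them, so the gene of origin is uncertain.

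Rpl37a and Rps15a were the other members that rose. Rpl37a, a small zinc-binding protein of the large subunit, stood at 14.1 and 9.67 times the median gene in wild type against 22.5 and 20.5 in the KO, with no overlap. The log2 change was 0.88 ± 0.23 (SE) with a limma adjusted p of 0.0393. Rps15a stood at 0.905 and 0.766 against 1.30 and 1.22, a log2 change of 0.59 ± 0.16 (SE) with a limma adjusted p of 0.0467. Leaving out wild type 2, KO 1 or KO 2 took both out of the calls, with adjusted p of 0.149 to 0.302, as did not centring, at 0.155 for Rpl37a and 0.314 for Rps15a, and taking the most frequent gene value, at 0.0609 and 0.0568. Rps15a also lost its call without the trend in eBayes, at 0.0642. The log2 changes without those libraries were 0.61 to 0.95 for Rpl37a and 0.47 to 0.64 for Rps15a.

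Rpl31 and Rpl36a followed without passing. Rpl31, near the exit tunnel, stood at 4.98 and 4.14 times the median gene in wild type against 7.72 and 6.81 in the KO, with a log2 change of 0.68 ± 0.19 (SE) and a limma adjusted p of 0.0562. Rpl36a stood at 6.86 and 5.85 against 10.0 and 9.76, with a log2 change of 0.64 ± 0.19 (SE) and a limma adjusted p of 0.0655. Neither overlapped between genotypes. Both passed with quantile normalization, TMM factors, only genes at or above the median gene, or no trend in eBayes, at limma adjusted p of 0.00997 to 0.0485, and Rpl31 also with the replicate block, at 0.0486.

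The lowest changes were those of Rpl22l1, Rpl7, Rps9 and Rpl7l1. Rpl22l1 stood at 11.0 and 8.49 times the median gene in wild type and at 8.93 and 5.39 in the KO, which overlap. Its log2 change was -0.48 ± 0.25 (SE) with a limma adjusted p of 0.272, and that of its paralogue Rpl22 was 0.36 ± 0.19 (SE) with 0.289, from 8.28 and 7.72 to 11.0 and 9.57. Leaving out 1 library moved the Rpl22l1 value between -0.84, without KO 1, and -0.12, without KO 2. Neither gene passed, and the difference between the paralogues was not tested. Rpl7, Rps9 and Rpl7l1 had log2 changes of -0.16, -0.11 and -0.10, all within the overlap of the libraries.

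By role, the median log2 change was 0.28 in 17 tested genes of the large subunit, 0.24 in 9 of the small subunit and -0.04 in 5 paralogue-like genes. The stalk genes Rplp0 and Rplp1 had 0.06 and 0.04, and Rplp2 had no single value in wild type 1. Rps19bp1 had 0.37 with a limma adjusted p of 0.283. Rpsa had no single value over all its sites, and by its sites in no other feature it stood at 50.1 and 47.6 times the median gene in wild type and at 49.3 and 41.1 in the KO.

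Beside these changes, the summed coverage of the tested eye field markers was 22.8 and 24.5 times the median gene in wild type and 5.05 and 5.31 in the KO, most of it from Six3 and Lhx2, and that of the pluripotency markers 4.67 and 5.12 against 3.16 and 2.43. Their part in the coverage of the ribosomal protein genes was not tested. The conversion rate, the share of a gene's adenosines read as G, had medians over the 34 members of 95.3% and 95.7% in wild type against 96.1% and 95.4% in the KO. The difference of 0.227 percentage points gave an exact permutation p of 0.667. Over all genes the medians were 96.1%, 96.2%, 97.2% and 96.6%, so the KO values were higher without overlap there and overlapped in the members.

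Other genes of the pathway were read from lists. Over all genes, 3.05% were higher and 3.40% lower by limma, and 83.3% of wild-type shared sites were in neither KO list. Mitochondrial ribosomal proteins, which serve the organelle's own ribosome, had 4 of 64 tested genes higher and 0 lower by limma, with a median log2 change of 0.14. Mrpl43 rose from 1.89 and 1.68 to 4.75 and 3.97 times the median gene, Mrps2 from 1.52 and 1.87 to 3.40 and 2.88, and Mrpl57 from 0.936 and 0.658 to 1.38 and 1.50. Of their wild-type shared sites 90 of 108 (83.3%) were in neither KO list, the same share as over all genes. Of their 191 and 230 sites with 100 or more reads in wild type, 30 and 36 had a level of 0.3 or more. In the KO these were 1 of 182 and 10 of 186. The shares were 15.7% and 15.7% against 0.549% and 5.38%, and over all genes 12.7% and 12.5% against 3.45% and 4.60%. Their median wild-type level at sites with a gene value was 0.210 and 0.213.

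Ribosome biogenesis factors had 3 of 28 higher and 1 lower, against 3.05% and 3.40% of all genes, with a median log2 change of -0.11. Nop10, of the pseudouridylation particle, rose from 12.4 and 9.41 to 22.0 and 21.6 times the median gene, Polr1b, a subunit of RNA polymerase I, from 1.30 and 1.24 to 2.58 and 2.17, and Nop2, an rRNA methyltransferase, from 1.58 and 1.51 to 2.94 and 2.31. Noc4l, of small subunit processing, fell from 2.13 and 2.08 to 1.30 and 1.44. Of their wild-type shared sites 66 of 85 (77.6%) were in neither KO list, against 83.3% over all genes.

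Translation factors had 0 of 21 higher and 1 lower, Eif3c, which fell from 2.99 and 3.60 to 2.30 and 1.70 times the median gene, and their median log2 change was -0.27. Of their wild-type shared sites 69 of 85 (81.2%) were in neither KO list, against 83.3% over all genes. Growth signalling genes and m6A writer genes had 0 of 7 called each, and 27 of 39 (69.2%) and 16 of 19 (84.2%) of their wild-type shared sites were in neither KO list. No difference between these lists and the ribosomal protein genes was tested.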

How the data were processed

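The authors deposited 1 list of called m6A sites per library. Per the file headers, each list gives 2 counts, of all A and G reads and of A reads, the fraction of unconverted reads, a p-value with its adjusted form, and a coverage signal and a conversion fraction of the gene. These deposited counts and fractions were used as they stood. The submitters' processing notes name the build mm10, although the lists' gene starts do not match those of the GRCm38 table, so coordinates here are those of the lists. The aligner and the caller are not given in the sources used here.

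Repeated entries were collapsed, and sites were placed in the same-strand span of a member. A gene's coverage was its single gene value, and genes with several values (263 to 309 per library) were left out. Sites in all 4 lists with at least 20 reads were tested with edgeR 4.0.16 (quasi-likelihood, a term per library), and log2 gene coverage, centred on the median gene, with limma 3.58.1 in R 4.3.3 (eBayes with trend), both with Benjamini-Hochberg adjustment over all sites or genes at 0.05. Both scripts were tested on simulated data. Per-library values were compared by exact permutation. Alternatives were other minima of coverage and level, other tests, centrings and gene values, a replicate block, and leaving out each library.

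Genes were named by a rule: members past the threshold, the 4 largest rises and falls, the 4 highest and lowest, the 6 members with most shared sites, the 8 highest shared sites with 50 or more reads in both, the 6 smallest p, stalk genes, Rpsa and paralogue pairs, and up to 3 per list and direction. Of members tied for shared sites, Rps24 was taken. The Rps15, Rps23, Rps15a and Rps4l sites were chosen after their values were seen. Members and lists were chosen with earlier results of these data known.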

Additional observations from a re-analysis of the deposited data

How the results depend on the processing

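The log2 ratio of listed member sites, KO over wild type, was -0.09, and turned to 0.0225 at a coverage of at least 100 and to 0.10 as a share of all sites of the library; leaving out 1 library gave -0.22 to 0.0179, the last without KO 1. The difference in median level, -0.00204, gave -0.00801 to 0.00392 when 1 library was left out, above 0 without wild type 1 or KO 1. The log2 ratio of well covered high sites was -1.26, and -3.17 to -0.13 under other minima and site kinds, the lowest at 200 reads and the last at 50. The share of wild-type shared sites in neither KO list, 64.4%, became 47.8% at a coverage of at least 100, 81.2% at a level of at least 0.3 and 50.0% with at least 50 reads expected, and 73.6% were absent from either KO list taken alone. For sites in all 4 lists, 0 calls became 1 with Fisher's exact test, which ignores the spread between libraries.

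The 3 calls in gene coverage became 1 without centring, 6 with quantile normalization, 5 with TMM factors and 5 among genes at or above the median gene, which tests fewer genes; leaving out 1 library gave 1 to 4, with 1 without wild type 2, KO 1 or KO 2. Rps4l was called under each of these centrings and among genes at or above the median gene. No cause of the changes in gene coverage was tested, that of Rps4l included. The difference in conversion rate, 0.227 points, gave -0.111 to 0.566, below 0 without KO 1.

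The replicate numbers were not used to pair the libraries. Deviations of same-numbered libraries correlated at -0.03 over 8268 genes, which cannot tell whether replicates were handled in pairs. In the tested members the median multiple was lower in replicate 2 of both genotypes, at 5.76 against 8.64 in wild type and 7.66 against 9.31 in the KO. With the replicate number as a block, 4 members were called in gene coverage and 0 sites in all 4 lists, and the median log2 change stayed at 0.24. Gene values from sites in no other feature, sites with a gene value only, and expected coverage were chosen as alternatives after seeing the data. Another normalization of the site fit was not run, because levels are shares within a library.

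With 2 libraries per genotype, the exact permutation test cannot go below 0.333. Lists hold called sites only, so an absence is no measured level of 0, and 34 of 85 members had a single gene value in all libraries.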
